A study of Mus musculus with 12 samples.

Results

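The H3K27ac landscape of unperturbed 4T1 cells was described from the 2 vehicle-treated libraries, chosen by their treatment label, of 12 libraries in the study. 4T1 is a mouse mammary carcinoma line that metastasizes when transplanted, labelled wild type here and grown in culture. The cells received vehicle for 48 h, with no acetate, etomoxir or SB204990, and H3K27ac was measured by chromatin immunoprecipitation and sequencing (ChIP-seq) after digestion with micrococcal nuclease. Human chromatin amounting to 7.5% was added as a spike-in. The remaining 10 libraries carried acetate, the fatty acid oxidation inhibitor etomoxir, etomoxir with the ATP citrate lyase inhibitor SB204990, or either of these with acetate, and no treatment was compared here. The labels do not say whether vehicle 1 and vehicle 2 came from separate cultures, so the spread between them may be technical. A difference between regions was read against that spread, and no test was made, since there was 1 group of 2 libraries.

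H3K27ac is an acetyl mark that histone acetyltransferases such as p300 and CBP place on nucleosomes flanking active promoters and enhancers, with acetyl-CoA as the donor. Most genes that are transcribed carry it as a short block around the start site, whereas genes that define a cell's identity often lie in long, nearly continuous domains. In mammary epithelium, luminal cells are marked by keratins 8 and 18, E-cadherin, claudins and GATA3, basal cells by keratins 5 and 14 and p63, and cells undergoing an epithelial-to-mesenchymal transition (EMT) by factors of the SNAI, TWIST and ZEB families together with matrix genes.

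The 2 libraries held 14601286 (vehicle 1) and 9689378 (vehicle 2) reads in 126464 intervals, recovered from the deposited spike-in scaled values. The intervals covered 284 Mb, had a median width of 715 bp and ranged from 165 to 185673 bp, with coordinates in mm10. The set of intervals is that of the whole series, and 0.834% and 0.813% of the intervals had no read in vehicle 1 and vehicle 2. Levels below are in RPM, the reads of an interval per 1000000 reads of the library in intervals, and signal per kb is that level divided by the interval width. On the spike-in scale the libraries summed to 6824977 and 7676895 scaled reads. Over all intervals, log2(RPM + 1) had a Pearson correlation of 0.982 between the libraries, a description across intervals that are not replicates. In the strongest 12456 intervals the log2 ratio of the libraries had an SD of 0.20, against 0.10 from counting alone, which is an extra coefficient of variation of 8.20%. Of the other 9 groups of about that size, ordered by strength, 8 had an excess of 9.99% to 20.4%, the highest at a median of 7 and 6 reads. In the weakest group the SD expected from counting, 1.39, exceeded the observed 1.18, and no excess could be estimated. Input DNA was not analysed here, so more acetylation and more DNA copies of a region cannot be told apart.

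Acetylation was concentrated in few, wide intervals. The strongest 1% of intervals (1265) held 32.9% and 30.9% of the signal in vehicle 1 and vehicle 2 (31.9% ± 1.41, SD, n = 2), and 3537 intervals, 2.80% of all, held 50.0% of it. These 1265 intervals took up 17.4% of the covered length, and 1097 of them were at least 20 kb wide. A ranking by total signal favours wide intervals, and their signal per kb was 6.45, against 3.52 over all intervals. The broad intervals of 20 kb or more numbered 1707 (1.35% of all) and held 35.3% and 33.8% (34.6% ± 1.04, SD, n = 2) on 21.7% of the covered length. At the other end, 37145 intervals under 400 bp were 29.4% of all intervals and held 1.47% and 2.05% of the signal. Narrow and weak intervals took a larger share in vehicle 2 than in vehicle 1, with 0.936% and 1.22% for the weakest 25% of intervals. Signal per kb was 1.74 in intervals under 400 bp, 1.49 from 400 bp to under 1 kb, 2.24 from 1 to under 5 kb, 3.95 from 5 to under 20 kb and 5.60 in broad ones, so it rose with width from 400 bp on. The share held by broad intervals depends on what counts as broad, and it was 55.6% with a limit of 10 kb and 84.4% when intervals within 10 kb of each other were joined first.

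**Figure D1:**
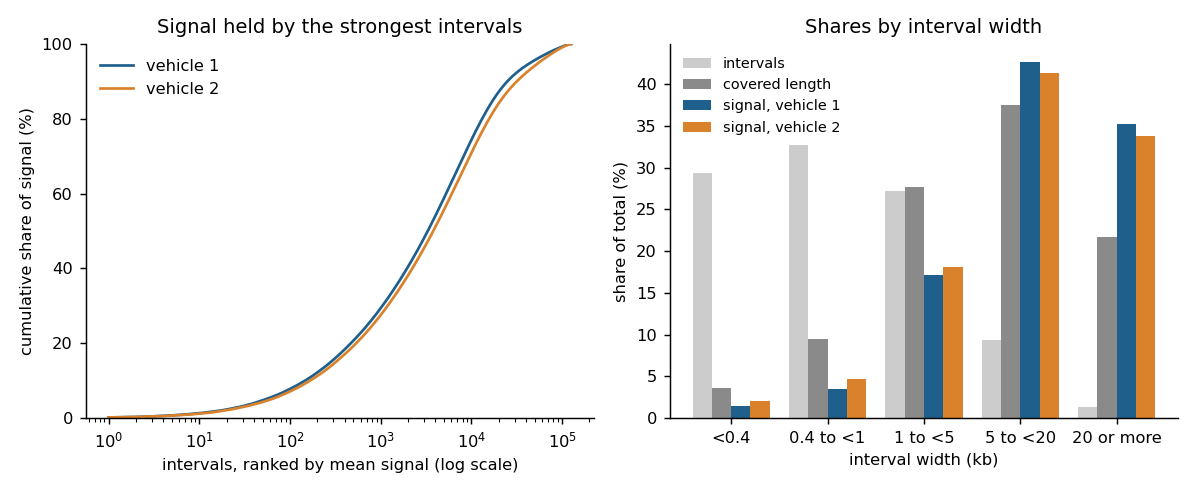
Left, cumulative share of signal (%) against intervals ranked by mean signal (log scale), 1 line per vehicle library. Right, shares (%) of intervals, covered length and signal of each library by interval width in kb, where the intervals of 20 kb or more are 1.35% of intervals and hold 35.3% and 33.8% of the signal.

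Intervals that covered their nearest transcription start site (TSS) were 9816 (7.76%) and held 51.6% and 48.6% of the signal (50.1% ± 2.09, SD, n = 2). The remaining 116648 distal intervals held the rest, on 65.4% of the covered length. Signal per kb was 5.10 in TSS intervals and 2.69 in distal intervals, a ratio of 2.01 in vehicle 1 and 1.79 in vehicle 2. At matched width the classes were closest under 400 bp, with 1.82 in TSS and 1.74 in distal intervals, and furthest apart from 1 to under 5 kb, with 3.82 and 1.98. Among broad intervals the values were 5.84 in 1176 TSS intervals and 4.93 in 531 distal ones. The share at promoters depends on how a promoter interval is defined, because the deposited promoter category is set by the interval centre. That category took 8348 intervals and 12.9% ± 0.525 of the signal (SD, n = 2), while introns took 52.2% ± 0.173 and intergenic sequence 21.4% ± 0.425. Intervals with an edge 100 kb or more from the nearest start were 10.9% of all and held 4.69% ± 0.0990 of the signal.

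Of 21728 protein-coding genes in the GENCODE vM21 annotation (mm10), 12253 (56.4%) had an interval within 500 bp of the 5′ end of the gene, called a marked start below. The interval at a marked start had a median width of 6.11 kb, and at 1868 genes it was a broad one. Many broad intervals lay away from protein-coding starts, since 677 of the broad intervals (39.7%) contained no protein-coding start, 621 contained 1, 213 contained 2 and 196 contained 3 or more. The most starts, 14, lay in 1 broad interval of the Hist1 cluster, which encodes replication-dependent histones, at the linker histone gene Hist1h1d.

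Marked starts were CpG-rich. RefSeq promoters (GRCm38.p6, the 250 bases upstream of the start) could be matched to 10596 protein-coding genes. The median number of CG dinucleotides was 3 (interquartile range 1 to 8) at 4075 starts without an interval, 16 (10 to 22) at 5631 starts in intervals under 20 kb and 16 (10 to 22) at 890 starts in broad intervals. Of the 7510 promoters with 5 or more CG, 78.0% were marked, against 21.5% of the 3086 with fewer. Starts in narrower and in broad intervals had the same median CG count. The letters CCGGAAG, the core that ETS factors bind, stood on either strand in 15.4% and 15.2% of promoters in narrower and broad intervals, 2.65% of those without an interval and 10.5% of all. TATAAA was more frequent without an interval, with 6.66%, 6.40%, 18.3% and 11.1% in the same order. The letters CCGGAAG hold a CG themselves, and whether their excess at marked starts goes beyond CG content was not tested. The following 4 promoters show the range, with CG in capitals. Foxc1, a forkhead factor of the EMT list, and Cldn4, a luminal tight junction gene, lay in intervals, while Krt5, the basal keratin, and Csn2, the milk protein beta-casein, did not.
Foxc1 promoter, chr13:31806396-31806645, plus strand: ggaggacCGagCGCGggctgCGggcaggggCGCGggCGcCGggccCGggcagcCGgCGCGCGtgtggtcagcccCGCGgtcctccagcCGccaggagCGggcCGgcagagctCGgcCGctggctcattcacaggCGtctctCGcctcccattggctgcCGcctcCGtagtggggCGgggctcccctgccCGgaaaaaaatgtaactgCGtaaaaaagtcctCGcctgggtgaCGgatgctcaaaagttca
Cldn4 promoter, chr5:134946935-134947184, minus strand: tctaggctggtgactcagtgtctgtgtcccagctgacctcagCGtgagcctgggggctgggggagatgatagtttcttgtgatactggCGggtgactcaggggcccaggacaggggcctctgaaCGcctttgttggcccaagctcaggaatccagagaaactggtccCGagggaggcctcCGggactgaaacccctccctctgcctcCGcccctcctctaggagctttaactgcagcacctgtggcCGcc
Krt5 promoter, chr15:101712906-101713155, minus strand: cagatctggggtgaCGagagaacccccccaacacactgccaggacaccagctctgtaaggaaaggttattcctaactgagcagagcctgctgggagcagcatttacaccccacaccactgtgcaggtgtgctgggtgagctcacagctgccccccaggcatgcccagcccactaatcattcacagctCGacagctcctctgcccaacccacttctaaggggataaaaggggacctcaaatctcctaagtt
Csn2 promoter, chr5:87699426-87699675, minus strand: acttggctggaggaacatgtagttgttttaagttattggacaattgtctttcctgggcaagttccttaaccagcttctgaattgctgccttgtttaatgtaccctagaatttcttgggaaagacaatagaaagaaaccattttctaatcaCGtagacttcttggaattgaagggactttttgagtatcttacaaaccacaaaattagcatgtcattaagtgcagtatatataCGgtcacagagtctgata

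These windows held 29, 7, 2 and 2 CG in the order shown. Cldn4 had fewer CG than the median marked promoter and yet lay in 1 wide interval with 344 and 290.2 RPM. Krt5 and Csn2 are tissue-restricted genes whose starts had no interval in the table.

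Denser distal intervals held some motifs more often. Distal intervals of 1 to under 5 kb were divided into 3 equal parts by signal per kb, and the central 300 bases of each were searched for TGACTCA, the site of AP-1 factors (FOS and JUN dimers), on both strands. The site stood in 8.97% of 10247 windows of the least dense part, 9.74% of 10248 in the middle and 13.5% of 10248 in the densest. Windows of the same length 3000 bp outside the interval edge, where no other interval lay, had it in 4.56%, 4.54% and 4.19%, and all 126335 central windows in 7.24%. The same letters in reverse, ACTCAGT, were found in 5.32%, 5.59% and 5.64% of the 3 parts, so their share changed little with signal. The ETS core also rose with signal, with 1.27%, 1.48% and 1.98% in the 3 parts. At TSS intervals AP-1 stood in 5.52% of windows against 4.80% in neighbouring ones, while the ETS core stood in 4.33% against 1.22%. In the densest part the share inside and outside was 1.98% and 0.674% for the ETS core, 17.6% and 14.9% for GGAATG (TEAD factors), 21.04% and 18.9% for CAGGTG (the E-box of SNAI and ZEB), 0.595% and 0.302% for ACCGGTT (grainyhead-like factors) and 22.6% and 21.97% for TGTGGT (RUNX factors). Over all central windows these 5 motifs stood in 1.67%, 16.5%, 22.3%, 0.458% and 22.8%. A match is not evidence of binding. Intergenic windows of the densest part were then searched with 1 chromosome left out. Of these 3685 windows, 65 had the AP-1 site more than once. The 3 of these 65 with the strongest intervals are shown with the site in capitals (GRCm38.p6).
distal window 1, chr5:77530631-77530930, plus strand: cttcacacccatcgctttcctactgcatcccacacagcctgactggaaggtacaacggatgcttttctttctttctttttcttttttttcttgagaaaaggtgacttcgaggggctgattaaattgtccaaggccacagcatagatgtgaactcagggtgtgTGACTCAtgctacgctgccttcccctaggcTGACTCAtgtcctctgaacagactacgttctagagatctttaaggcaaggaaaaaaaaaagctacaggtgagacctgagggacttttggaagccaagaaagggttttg
distal window 2, chr2:136678580-136678879, plus strand: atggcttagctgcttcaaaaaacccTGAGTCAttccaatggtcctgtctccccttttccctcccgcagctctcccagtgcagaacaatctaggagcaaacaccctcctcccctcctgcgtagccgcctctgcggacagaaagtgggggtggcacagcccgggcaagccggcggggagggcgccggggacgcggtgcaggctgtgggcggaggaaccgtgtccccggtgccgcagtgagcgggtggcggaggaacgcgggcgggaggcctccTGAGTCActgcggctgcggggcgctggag
distal window 3, chr4:44282116-44282415, plus strand: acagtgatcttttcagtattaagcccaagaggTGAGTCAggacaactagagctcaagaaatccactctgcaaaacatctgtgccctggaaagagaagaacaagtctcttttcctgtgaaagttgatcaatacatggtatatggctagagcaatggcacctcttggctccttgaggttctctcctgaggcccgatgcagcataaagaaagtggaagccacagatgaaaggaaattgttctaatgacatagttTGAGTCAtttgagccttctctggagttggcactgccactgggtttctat

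The first window lay at the centre of an interval of 4.84 kb with 17.5 and 17.4 RPM in vehicle 1 and vehicle 2, 45.1 kb from the nearest annotated start. The second had 17.8 and 13.5 RPM and the third 14.6 and 14.0. All 3 were stronger than the median interval, which had 13 and 12 reads, and far weaker than the broad domains described next.

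**Figure D2:**
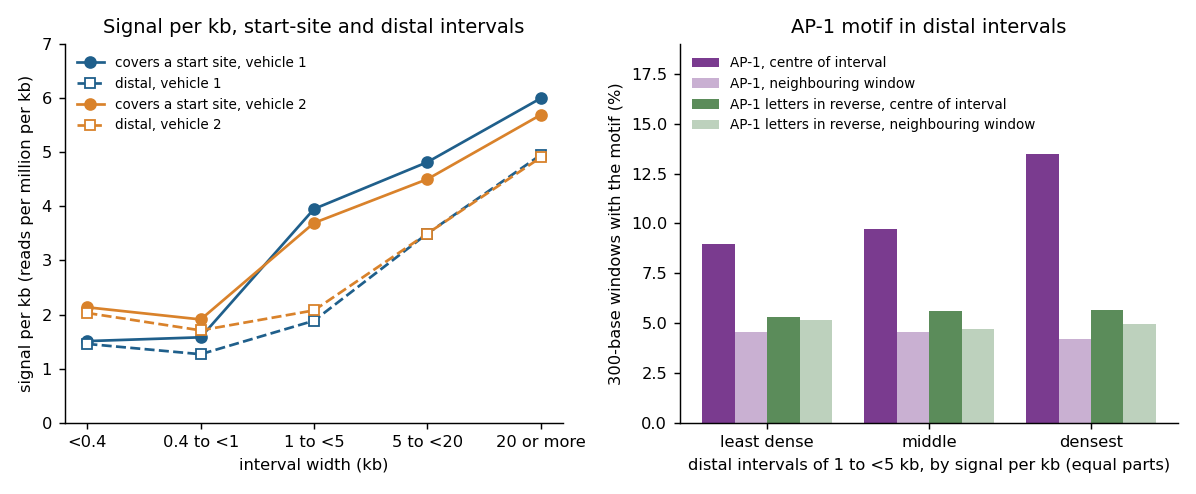
Left, signal per kb (RPM per kb) of TSS and distal intervals by width in kb, 1 line per class and vehicle library, where TSS intervals of 1 to under 5 kb averaged 3.82 and distal ones 1.98. Right, share (%) of 300-base windows with the AP-1 motif or its letters in reverse at the centre of distal intervals and in neighbouring windows, where AP-1 went from 8.97% in the least dense part to 13.5% in the densest.

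The strongest interval in both libraries lay over Pvt1, the non-coding gene downstream of the Myc oncogene, with 1709.7 and 1772 RPM in vehicle 1 and vehicle 2 (chr15:62024683-62192905, 168 kb). It was followed by an interval of 82.2 kb over Card10, a scaffold protein of NF-kB signalling, with 1467 and 1341 (chr15:78776366-78858573). The latter also covered the start of Cdc42ep1, an effector of the CDC42 GTPase. The Sbno2 interval had 1367 and 1328 and spanned the starts of 10 protein-coding genes over 167 kb (chr10:80011190-80178174), among them Gpx4, which reduces lipid peroxides, and Stk11, the kinase LKB1. An interval over Gm16045, a non-coding gene inside Sept9, a cytoskeletal septin, had 1244 and 1239 over 174 kb (chr11:117191697-117365830). These 4 were among the 6 strongest in each library.

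Of the next intervals by mean signal, those of G430095P16Rik and Hoxa4 were lower in vehicle 2, and those of Col4a1 and Gm42836 were close in both libraries. The interval of G430095P16Rik covered the start of Nfix, a nuclear factor I gene, and had 1233 and 1059 (chr8:84679178-84804235). That of Hoxa4 had 1285 and 880.2 and ranked 5 in vehicle 1 and 19 in vehicle 2 (chr6:52154893-52241341). Col4a1, which encodes a basement membrane collagen, had the widest interval of all, 186 kb with 1037 and 1089.5 (chr8:11240595-11426267), and it covered the divergent starts of Col4a1 and Col4a2. Gm42836, a non-coding gene within Bcar3, an adaptor of adhesion signalling, had 1015 and 1018 (chr3:122371644-122531817). Of the 100 strongest intervals of each library 94 were shared, and of the 1000 strongest 937.

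The 4 Hox clusters, examined after the values had been seen, differed widely. Hox genes encode the homeobox factors that record position along the body axis. In Hoxa 9 of 11 protein-coding genes had a marked start, the exceptions being Hoxa11 and Hoxa13, and the cluster had 1285 and 881 RPM. Hoxb had no interval over 10 genes. Hoxc had 14.9 and 12.1 RPM, with 1 of 9 starts marked, and Hoxd had 18.5 and 18.0, with 2 of 9.

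Several of the strongest domains contained microRNA hairpins, also examined after the values had been seen. MicroRNAs are short RNAs that repress messengers through their seed, bases 2 to 8. Of 1005 hairpins in the RefSeq annotation, 447 (44.5%) lay in an interval and 150 (14.9%) in a broad one. The starts of protein-coding genes, matched within a window rather than by overlap, had 56.4% and 8.60%. The Gm13833 interval held Mir29a and Mir29b-1 and had 1478 and 1132 RPM (chr6:31053616-31151858), and the Gm48742 interval held Mir100 and Mirlet7a-2 with 1214 and 1095 (chr9:41468789-41548166). A neighbouring interval held Mir125b-1 with 856 and 621 (chr9:41570667-41601037). The Hoxa interval held Mir196b, and the Gm49890 interval on chromosome 4 held Mir31 with 1121 and 824 (chr4:88906411-89017405). Mirlet7b and Mirlet7c-2 shared a domain of 69.3 kb with 892 and 654 RPM, and Mir21a lay in one of 50.6 kb with 702 and 549.8. In all of these the RPM level was higher in vehicle 1, but on the spike-in scale the Gm48742 interval was higher in vehicle 2. The mature arms below are printed with the seed in capitals and grouped by shared seed, from RefSeq.
mmu-miR-29a-3p: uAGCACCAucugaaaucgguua
mmu-miR-29b-3p: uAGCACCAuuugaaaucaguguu
mmu-let-7b-5p: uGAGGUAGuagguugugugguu
mmu-let-7c-5p: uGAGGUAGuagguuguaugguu
mmu-miR-100-5p: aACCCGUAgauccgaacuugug
mmu-miR-125b-5p: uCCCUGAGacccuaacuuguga
mmu-miR-196b-5p: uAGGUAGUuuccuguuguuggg
mmu-miR-31-5p: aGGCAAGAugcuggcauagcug
mmu-miR-21a-5p: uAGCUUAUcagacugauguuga

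Both miR-29 arms carry the seed AGCACCA and both let-7 arms GAGGUAG, and the remaining 5 seeds differ. miR-29 is known for repressing collagen and other matrix messengers, and miR-31 and miR-21 are studied in breast cancer metastasis. The table measures acetylation at these loci and not the RNA.

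The Myc locus carried the largest signal assigned to any gene name. Gm49498, a non-coding gene upstream of Myc, collected 37 intervals with 2821 and 2879 RPM, and Pvt1 collected 10 intervals with 2482 and 2579. Within 1 Mb of the Myc start, 149 intervals held 0.697% and 0.710% of the signal on 0.237% of the covered length. The 3 densest upstream intervals, centred at -530, -449.5 and -374 kb from the start, had 25.3 and 24.2, 27.9 and 26.5, and 24.997 and 24.6 RPM per kb. The interval at the Myc start itself had 17.3 and 13.7 over 28.8 kb. These 3 intervals, picked as the densest, thus exceeded the start in both libraries. Summed over all upstream intervals, the signal per kb was 16.4 and 16.8 from -700 to -400 kb, 11.6 and 12.2 from -400 to -100 kb and lower still from -1000 to -700 kb, so each of these stretches lay below the start interval in vehicle 1, whereas in vehicle 2 the stretch from -700 to -400 kb lay above it.

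The level of the surroundings of Myc was also high. Intervals under 400 bp had a median of 1.65 RPM per kb over 1103 bins of 2 Mb with at least 10 such intervals, with a 95th percentile of 2.24. Of the 10 highest bins, 6 lay on chromosome 15, side by side from 56 to 68 Mb, at 3.62 to 4.08. In 1 Mb bins around Myc, 13 of 14 bins within 7 Mb exceeded the 95th percentile by the mean of the libraries, against 1 of 16 bins from 7 to 15 Mb away. The limit of 7 Mb was set from these bins, 5 of those within it hold fewer than 10 intervals, and the counts are a description only. The region within 7 Mb held 1.999% of the signal on 1.03% of the covered length, and 3 of the 15 strongest gene names lay in it. Whether it has more DNA copies or more acetylation cannot be told apart without input DNA. After division by the level of narrow intervals within 3 Mb, an alternative chosen after the data were seen, Gm49498 went from place 1 to 4, Pvt1 from 2 to 8, 1700010G06Rik from 4 to 70 and Myc from 175 to 707, while 10 of the 15 strongest names remained.

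**Figure D3:**
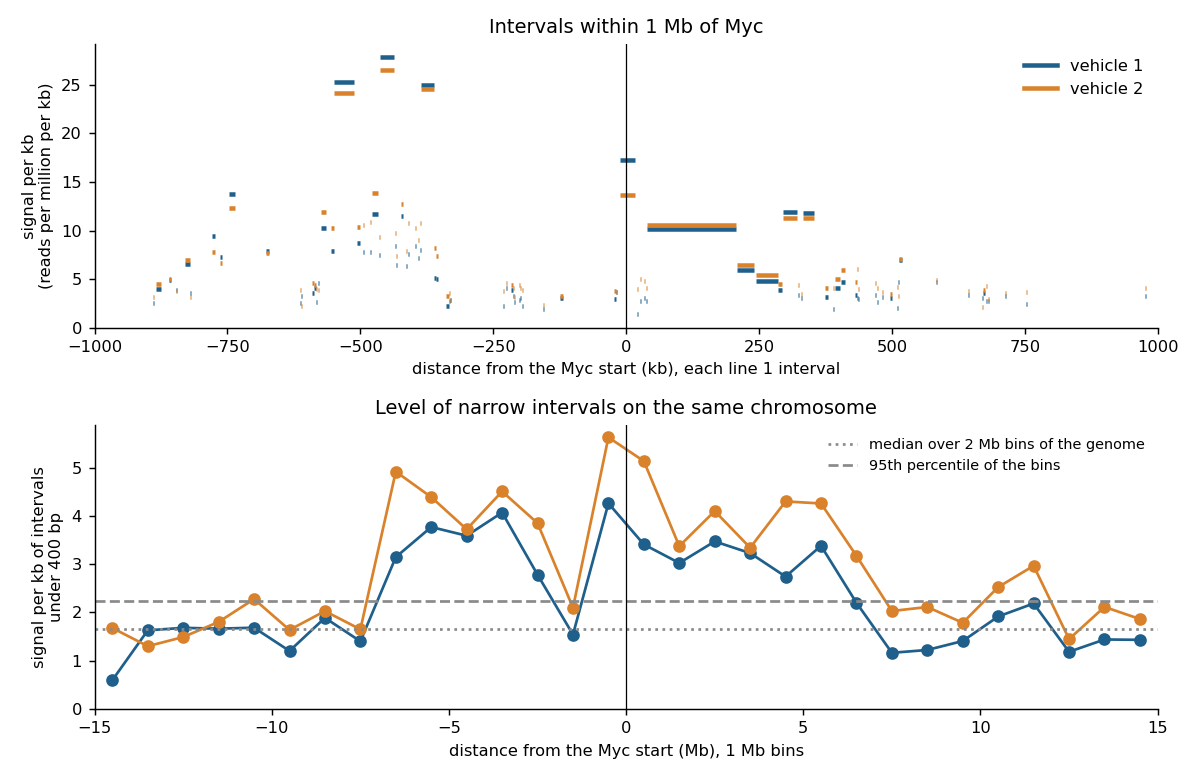
Top, signal per kb (RPM per kb) of each interval within 1 Mb of the Myc start, against distance in kb, with 1 line per interval and vehicle library. Bottom, signal per kb of intervals under 400 bp in 1 Mb bins against distance from Myc in Mb, with the genome median (1.65) and 95th percentile (2.24) of 2 Mb bins as lines, where 13 of 14 bins within 7 Mb lie above the 95th percentile by the mean of the libraries.

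Ranking by signal per kb brought up other intervals as well as upstream ones of Myc. Among intervals of 1 kb or more, the densest lay near Gm28502 (chr15:75085506-75086958, 1.45 kb) with 117 and 143 RPM per kb, and 56.4% of its bases were repeat-masked in the reference. It was followed by Gm42418 with 26.9 and 59.7 (chr17:39843038-39847203), Gm12735 with 36.2 and 44.9 (chr11:3193096-3194996) and Gm21738 with 30.2 and 35.2 (chr14:19415830-19419393, 83.7% repeat-masked). Gm42418 differed by a ratio of 2.22 between the libraries, more than any other of the 10 densest intervals. An interval of 900 bp near Gm10800 on chromosome 2, below the width limit, had 765 and 1133 RPM and was among the 16 strongest intervals by its total. Repeats map uncertainly, and the levels of these intervals are given with that limit. Of the 25 densest intervals 2 were over 50.0% repeat-masked, against 3.82% of all 47935 intervals of 1 kb or more.

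The other 8 of the 10 densest intervals were 4.66% to 38.1% repeat-masked. Igkv14-111, an immunoglobulin light chain segment, was the nearest gene of an intergenic interval with 28.7 and 23.9 (chr6:68245244-68251053). The Hspa8 interval had 28.8 and 21.8 over 8.43 kb (chr9:40797006-40805437), and Hspa8 encodes the constitutive chaperone HSC70. The intervals of Gm49498 already described and that of Gm28119 with Mir125b-1, at 28.2 and 20.4, completed the 10 densest. Gata3, the luminal master regulator, came at place 15 with 22.8 and 15.7 (chr2:9856177-9892030). By sum per kb among gene names with at least 100 RPM, the order was Gm10800, Gm10801, Gm42418, Gm28502, Gm21738, Igkv14-111, Gm28119, Hspa8, Gm49498 and Card10, from 202 to 17.1 RPM per kb. Hspa8 and Card10 were the only genes among them that were neither predicted loci, whose symbols start with Gm, nor immunoglobulin segments.

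Summed by gene name, signal was spread over 22264 names, and the 100 strongest held 8.72% and 8.07% (8.40% ± 0.461, SD, n = 2). Of the 100 strongest names in each library 92 were shared, and of the 15 strongest 11. Non-coding genes made up 39.0% of the 100 strongest and 29.9% of all names. After Gm49498 and Pvt1 came Tns3, a focal adhesion tensin, with 1639 and 1636 over 24 intervals, and 1700010G06Rik, beside the adhesion regulator Asap1, with 1495 and 1486. Card10, Sbno2, Gm13833, Gm16045, Gm48742, G430095P16Rik and Hoxa4 followed at the values of their intervals or close to them. Lrig1, a feedback inhibitor of EGF receptor signalling, had 1191 and 1059 over 25 intervals. The non-coding 5031415H12Rik had 1198 and 945 and Gm12610 had 1154 and 981. Fndc3b, a membrane protein with fibronectin repeats, had 1092 and 1039. Those with the closest agreement were Tns3, 1700010G06Rik and Gm16045, and the one furthest apart was Hoxa4, at 0.685 of its vehicle 1 level in vehicle 2.

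**Figure D4:**
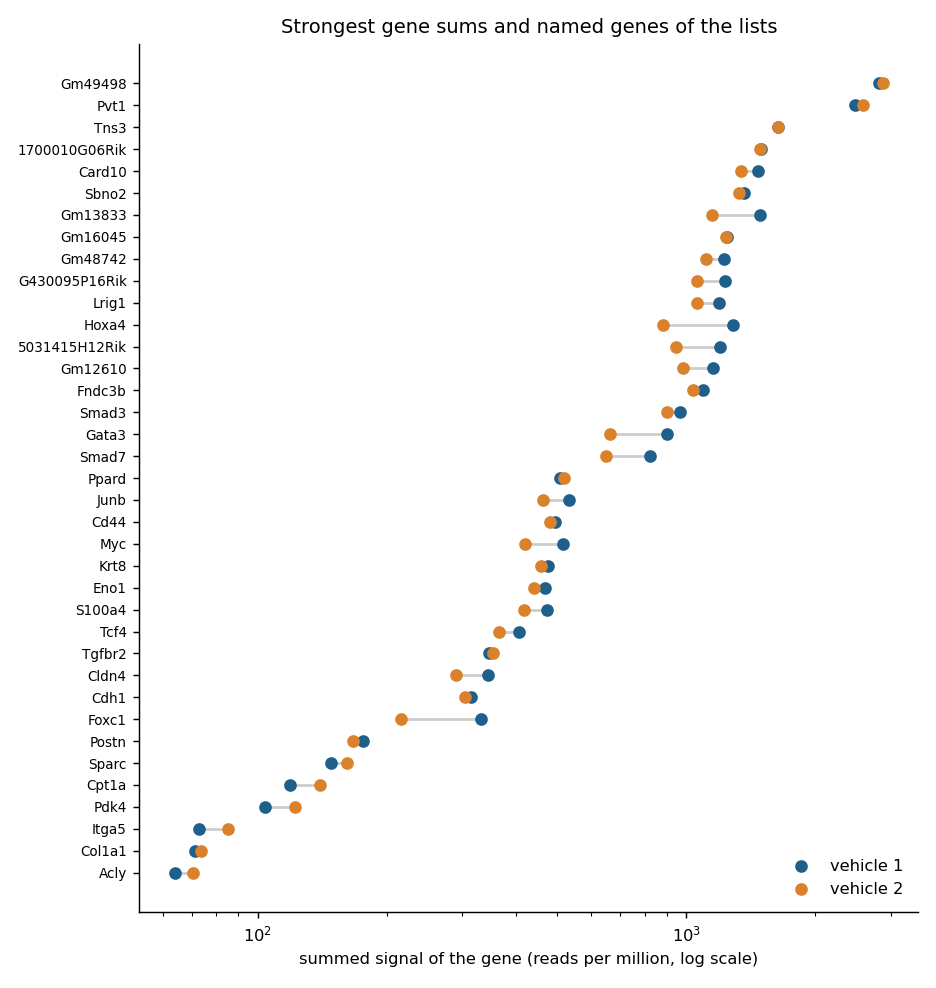
Summed signal (RPM, log scale) of the 15 strongest gene names and of named genes of the lists, with 1 point per vehicle library joined by a line. Gm49498 is highest with 2821 and 2879, and Acly is lowest of those shown with 64.0 and 70.4.

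A sum by nearest gene misses genes whose start lies in a wide interval that was assigned to a neighbour. Krt18 had no interval under its own name, yet its start lay in the Krt8 interval. Actg1, which encodes gamma-actin, had 1.03 and 1.55 RPM under its name, while the interval at its start had 171 and 131. For each list below the percentile of the sum among all names is therefore given beside the number of marked starts. Counts of marked starts are read against 56.4% of all protein-coding genes and broad ones against 8.60%.

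Luminal genes stood in the upper part of all names. Mesenchymal and matrix genes (median percentile 81.2) and glucose uptake and glycolysis genes (82.2) stood about as high. The percentile therefore does not set luminal genes apart. The luminal median was 81.5 over the 29 of 35 genes with an interval under their name, 26 of 35 starts were marked (74.3%) and 9 lay in broad intervals. Gata3, a zinc finger factor required in luminal cells, led with 900.1 and 663 RPM over 22 intervals. The luminal keratin Krt8 had 476 and 459 in 1 interval of 80.6 kb (chr15:101974106-102054693), which also covered the start of its partner Krt18. The tight junction genes Cldn4 and Cldn3 had 344 and 290.2 and 182 and 155. Cdh1, encoding E-cadherin, had 315 and 304, with its start in an interval of 51.4 kb (chr8:106600748-106652142). Krt8 and Cdh1 were closer between the libraries than Gata3, Cldn4 and Cldn3, which were lower in vehicle 2. Krt7, another luminal keratin, had no interval under its name, and its start lay in an interval of 38.1 kb with 156 and 151. Grhl2, a grainyhead-like epithelial factor, had 79.9 and 89.9, and Esr1, the oestrogen receptor alpha, 145 and 129, both with marked starts. The lowest member was Kit, a receptor of luminal progenitors, with 0.342 and 0.310. The starts of Elf5 and Prlr, which act in alveolar differentiation, and of the milk genes Csn2, Lalba and Wap were not marked. A further milk gene, Csn3, had a marked start, in an interval of 0.65 kb with 1.03 and 0.310.

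Basal genes were divided. The median percentile was 74.3 over 21 of 26 names, and 10 starts were marked (38.5%), below the share of all genes, while 4 lay in broad intervals (15.4%), above the 8.60% of all genes. Among the strongest members were genes of cell adhesion. The integrins Itgb1 and Itgb4 had 357 and 346 and 301 and 306, and Sfn, the 14-3-3 sigma gene, had 241 and 245. The desmosome gene Pkp1 came next with 190.1 and 222, although the 5′ end of the gene was not marked. The basal keratins Krt5 and Krt6a had no interval under their names and no marked start. Trp63, the gene of p63, had 166 and 155 over 33 intervals and no marked start, while the start of Krt14 lay in an interval of 8.87 kb with 48.7 and 57.4. Krt15 was lowest, with 1.44 and 1.86. With any annotated transcript start counted, 17 of the 26 were marked in place of 10, the added ones including Itga6, Lama3, Mylk and Pkp1, whereas the luminal count went from 26 to 28. On that definition 60.3% of all protein-coding genes were marked in place of 56.4%, and the basal share was 65.4%, so the position of the basal list below all genes did not hold for it.

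EMT transcription factors ranged from domains of about the strength of luminal genes to almost no signal. Their median percentile was 80.0 over 15 of 18 names, and 12 starts were marked (66.7%), 3 of them in broad intervals. Tcf4 led with 407 and 366 over 48 intervals, followed by Foxc1 with 331 and 215, Sox4 with 212 and 159, Foxc2 with 116 and 102 and Tcf3 with 98.5 and 112. Of the SNAI family, the start of Snai1 lay in an interval of 99.7 kb with 557 and 578 (chr2:167535885-167635616), although only 1.30 and 3.72 stood under its own name, and Snai2 had no marked start and 6.37 and 4.95. Twist1 had 108 and 83.7, whereas Twist2, Zeb2 and Gsc had no interval under their names. With any annotated start counted, 14 of 18 were marked, Klf8 and Zeb2 being added, against 60.3% of all protein-coding genes. Zeb1 was lowest with 1.78 and 1.24, and the interval at its start was 0.288 kb wide with 0.342 and 0.206. The start of Hmga2, a chromatin protein induced in EMT, lay in an interval of 99.3 kb with 645 and 510.1. Thus Snai1, Twist1 and Hmga2 carried the mark at their starts, while the start of Zeb1 was near the level of 3 reads (0.205 and 0.310 RPM).

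Mesenchymal and matrix genes were close to luminal ones, with a median percentile of 81.2 over 40 of 45 names, 32 marked starts (71.1%) and 14 broad ones. The difference between the medians of the 2 lists was smaller than the spread of the luminal median between the libraries (2.12 percentile points, SD, n = 2). After Col4a1 came Cd44, the hyaluronan receptor, with 494 and 481, and S100a4, a calcium-binding protein tied to motility, with 474 and 417 in 1 interval of 37.6 kb. Tgfbr2, a TGF-beta receptor, had 346 and 354. Vim, the intermediate filament vimentin, had 83.9 and 75.2 with a start interval of 9.12 kb. Cdh2, encoding N-cadherin, had 0.205 and 0.826 and no marked 5′ end, although another of its annotated starts was marked. Col6a1 was lowest by its sum, with 0.411 and 0.413, and the interval at its start had 3.70 and 4.44.

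The study follows Postn, Sparc, Itga5 and Col1a1 as EMT genes, and their baseline differed in layout. Postn, a matricellular protein, had 176 and 167 over 18 intervals (percentile 94.8), yet the interval at its start was 0.267 kb wide with 0.205 and 0.413, so nearly all of its signal was distal. Sparc, another matricellular protein, had 148 and 162 (percentile 93.9), of which 132 and 139.7 stood in the interval of 28.4 kb at its start (chr11:55403480-55431873). Itga5, the fibronectin receptor subunit, had 72.7 and 85.4, with 54.0 and 61.4 at its start (chr15:103354887-103370913). Col1a1, a fibrillar collagen, had 71.3 and 73.7, with 7.40 and 8.36 at its start (chr11:94935114-94938604). By the share at the start, Sparc and Itga5 were promoter-centred and Postn and Col1a1 were not.

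Tumour-associated transcription factors were the strongest list by the percentile of the sum and by the share of broad starts. The median percentile was 94.2 over 39 of 43 names, 39 of 43 starts were marked (90.7%) and 21 lay in broad intervals. The leaders belong to TGF-beta, AP-1, MYC and ETS signalling. Smad3, a TGF-beta effector, had 967 and 902 with its start in an interval of 126 kb, and its antagonist Smad7 had 823 and 648. Junb had 533 and 462 in 1 interval of 41.6 kb, Myc 516 and 419, and Elk3, an ETS factor, 440.3 and 403. Cebpb was lowest by its sum, 3.42 and 4.85, but its start lay in an interval of 31.1 kb with 166 and 150.5. The AP-1 genes Fosb and Fosl1 had no interval under their names, yet their starts lay in intervals of 68.3 kb with 555 and 514 and of 27.8 kb with 284 and 264. Fosl2 had 424 and 383 and Jun 104 and 82.8, so each AP-1 gene given here had a marked start. Sox2, Runx2, Epas1 and Nr3c1 were the 4 members without a marked start at the 5′ end, and Runx2 and Nr3c1 were marked with any annotated start counted.

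**Figure D5:**
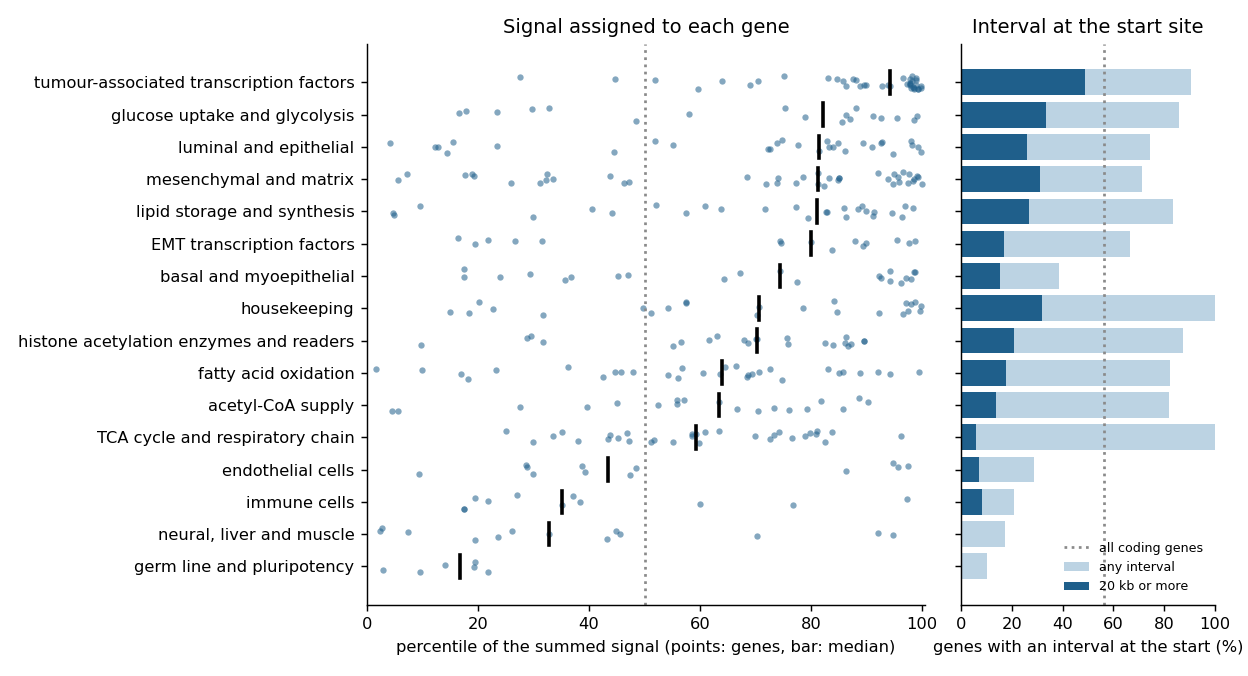
Left, percentile of the summed signal among 22264 names for each gene of the 16 lists (points) with the median of the list (bar), lists ordered by median. Right, share (%) of genes with an interval at the start and with one of 20 kb or more, beside the 56.4% of all protein-coding genes. Housekeeping genes and the tricarboxylic acid cycle and respiratory chain list reach 100%, tumour-associated transcription factors 90.7% and germ line genes 10.0%.

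Genes of acetyl-CoA supply and its control were marked at most starts. Acetyl-CoA for histones comes from citrate cleaved by ATP citrate lyase (Acly) and from acetate activated by Acss2, while Acss1 acts in mitochondria. In this list 18 of 22 starts were marked (81.8%) and 3 lay in broad intervals (13.6% of the list), with a median percentile of 63.4 over 19 names. The list also holds the pyruvate dehydrogenase kinases, which inactivate that enzyme and so limit the supply, and they had its 2 highest sums and 2 of its 3 broad starts. Of these kinases Pdk4 and Pdk3 had 104 and 122 and 97.7 and 102, while citrate synthase (Cs) had 82.3 and 83.6, Acly 64.0 and 70.4 and the citrate carrier Slc25a1 59.2 and 60.7. The start interval of Acly was 11.0 kb wide with 4.85 and 5.01 RPM per kb (chr11:100518353-100529361). Acss2 had 3.97 and 4.33 under its name, and 15.7 and 18.1 in the interval of 5.14 kb at its start (chr2:155514307-155519444). Acss1 had 0.205 and 0.619 and no marked start, and Acss3 was lowest with 0.274 and 0.413. Thus Acly and Acss2 carried the mark at their starts and Acss1 did not. The broad intervals were at Pdk4 and at the starts of Pdk2 and Crat, carnitine acetyltransferase, which had no interval under their own names. That of Pdk4 was 24.2 kb wide with only 1.49 and 1.60 RPM per kb, against 5.60 in broad intervals as a group. The start of Pdk2 lay in the Itga3 interval of 72.1 kb with 1017 and 861, and that of Crat in an interval of 71.05 kb with 504 and 495.

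Fatty acid oxidation genes had 28 of 34 starts marked (82.4%), 6 broad ones and a median percentile of 64.0 over 30 names. Their median signal per kb at the start was 3.55, against 4.67 in the acetyl-CoA list and 4.22 over all marked genes. Ppard, a nuclear receptor for fatty acids, led with 507 and 517 in 1 interval of 68.5 kb. Acsl4, which activates long-chain fatty acids, had 168 and 153, Cpt1a, the target of etomoxir, 119 and 139.6, and the mitochondrial enzymes Acadl and Acaa2 104 and 98.4 and 85.1 and 82.7. The start of Cpt1a lay in an interval of 26.5 kb (chr19:3320685-3347179) with 3.26 and 3.72 per kb, below the average of broad intervals. Eci2 was lowest with 0.137 and 0.206. The starts of Ppara, Pparg, Ppargc1a and Cd36, regulators and a transporter of oxidative tissues, were not marked at the 5′ end, and only Pparg of these was marked at another annotated start.

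Lipid storage and synthesis genes had a median percentile of 81.1, with 25 of 30 starts marked and 8 broad ones, and glucose uptake and glycolysis genes 82.2, with 18 of 21 and 7. Among the former, the lipogenic factor Srebf1 had 231 and 239, the droplet coat protein Plin2 221 and 208, the desaturase Scd2 161 and 174 and Agpat2 117 and 129, and Elovl1 was lowest by its sum with 0.411 and 0.310, although its start lay in an interval of 15.6 kb with 89.9 and 83.9. Among the latter, Eno1 had 467 and 441, Pkm 361 and 336, Aldoa 193 and 180.3, Gpi1 132 and 141 and Gapdh 128 and 113. The glucose transporter Slc2a1 was lowest by its sum, 1.64 and 1.44, but its start lay in an interval of 58.1 kb with 296 and 286. The start of Hk2, the hexokinase of many tumours, lay in an interval of 41.5 kb with 201 and 175, and that of Pnpla2, the lipase that opens stored triglyceride, in one of 66.95 kb with 390.4 and 365. Neither had an interval under its own name, so the sum by nearest gene shows nothing of them.

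The tricarboxylic acid cycle and respiratory chain list differed in layout from the transcription factors. All 34 starts were marked, only 2 in broad intervals, and the median percentile was 59.3, led by Atp5o with 199 and 223, Idh3b with 79.7 and 68.6, Ndufa4 with 73.6 and 66.4, Cox6c with 61.5 and 68.8 and Idh3a with 64.3 and 65.4. Cyc1 was lowest by its sum, with 3.01 and 3.72, but its start lay in an interval of 11.6 kb with 60.3 and 54.7. Histone acetylation writers, erasers and readers had 21 of 24 starts marked, 5 broad ones and a median percentile of 70.2. The acetyltransferase Kat6a had 105 and 108, the deacetylases Hdac5 and Hdac4 95.7 and 116 and 85.1 and 90.5, Kat5 87.5 and 92.9 and Ep300, which encodes p300, 93.5 and 78.7. Hdac9 was lowest with 0.479 and 0.929, and the start of Hdac7 lay in an interval of 112 kb with 759 and 726. Housekeeping genes had all 25 starts marked, 8 broad ones, a median percentile of 70.5 and the highest median signal per kb of any list at the start, 6.67, led by Tubb5 with 918 and 830.1, Rplp0 with 637 and 578, Actb with 387 and 364, Ywhaz with 319 and 290.2 and Rpl3 with 282 and 244.

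Starts of other cell types' markers were marked less often than the 56.4% of all genes, with single genes high. In the immune list 5 of 24 starts were marked (20.8%) and 13 genes had no interval under their name, among them Cd3d, Cd4 and Lyz2. Ptprc, the pan-leukocyte marker, had 7.47 and 7.02 and no marked start. Cd68, a lysosomal protein of macrophages, had 272 and 240.1 in an interval of 39.6 kb, followed by Csf1r with 53.8 and 54.1, Itgam with 24.6 and 28.9, Spi1 with 6.51 and 11.2 and Itgax with 9.04 and 7.43, and Ly6g was lowest with 2.19 and 1.14. Broad intervals thus marked 2 immune genes, Cd68 and Cd14, the latter through an interval of 22.9 kb with 110.3 and 106. In the endothelial list 4 of 14 starts were marked, with the TGF-beta co-receptor Eng at 269 and 272, Cldn5 at 175 and 205, Flt1 at 161 and 183, Pecam1 at 86.0 and 85.8, Esam at 14.999 and 16.8 and Sox18 lowest at 0.548 and 0.826. Cdh5, the endothelial cadherin, had 14.4 and 15.8, and Tek had no interval under its name. In the neural, liver and muscle list 4 of 23 were marked, with Apoa1 at 162 and 179 over 9 intervals, none at its start, Apob at 128 and 131, Snap25 at 40.5 and 40.6, Gad1 at 15.1 and 12.3, Rbfox3 at 11.4 and 15.2 and Des lowest at 0.137 and 0.310. The neural regulators Neurog2, Pax6 and Olig2 and the muscle regulators Myod1 and Myog had no interval under their names. In the germ line and pluripotency list 1 of 10 was marked, Pou5f1, which was also lowest with 0.205 and 0.310. Ddx4 had 2.40 and 2.58, Nanog 1.99 and 2.06, Stra8 1.99 and 1.96, Zfp42 0.822 and 1.55 and Tdgf1 0.342 and 1.03. The median percentiles of these 4 lists were 35.1, 43.4, 32.9 and 16.7, all below 50.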

How the data were processed

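Fixed chromatin was sheared with micrococcal nuclease and mixed with human chromatin, per the labels. The authors aligned reads with the nf-core/chipseq workflow to human and mouse genomes joined together and scaled each library by its human reads. The deposited signal of an interval is its reads multiplied by that factor (0.467 and 0.792 here). All values were whole multiples of 1 read (100% within 0.01), and reads were recovered by division. No count test was run, since no groups were compared. How intervals were merged over libraries is not given in the sources used here. Input DNA and the 10 other value columns were not used.

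Shares, percentiles and densities were computed with Python 3.11.15, pandas 2.3.3, numpy 2.4.6 and scipy 1.17.1 and checked on simulated libraries. A TSS interval reaches its nearest start by the deposited distance, and 98.9% of these distances ended at a GENCODE vM21 (mm10) transcript start. A chi-square of 2.18 per interval exceeded counting noise, so the libraries were not treated as repeat deposits of 1 library, which does not show that they are separate cultures. Symbols that read as dates (21) were kept, and 129 intervals on unplaced scaffolds and chromosome Y were ranked apart.

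Members and lists were chosen with earlier results of these data known. Named by rule were the 10 strongest and 10 densest intervals (density from 1000 bp), the 5 widest, the 15 strongest and 10 densest gene names (density from 100 RPM), the 5 highest and the lowest of each list by sum, and the genes the study follows. Some items that the rule selects are not reported here. All other names were picked with their values in view.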

Additional observations from a re-analysis of the deposited data

How the results depend on the processing

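Of 59 alternative values for the 8 summary results, 39 lay within the spread between the libraries (for counts, within 1.5 times) and 20 moved beyond it or, for the correlation, had no spread to be read against. Values with 1 library left out lie within that spread almost by construction, so their place among the 39 is no evidence of stability. No paired analysis was possible because there was 1 group and no test. With each library left out in turn, the TSS share was 48.6% to 51.6%, the broad share 33.8% to 35.3%, the share of the strongest 1% 30.9% to 32.9%, the density ratio 1.79 to 2.01, the share of the 100 strongest genes 8.09% to 8.73% and the luminal percentile 79.8 to 82.8. Taking off a uniform background gave 52.7%, 36.7%, 34.3%, 2.10 and 9.15% for the first 5, and 0.973 for the correlation. Keeping intervals with a mean of 10 reads or more gave 25.04% for the strongest 1% and 0.984 for the correlation, which was 0.982 without chromosomes X, Y and M and unplaced scaffolds, 0.900 as Spearman's rho and 0.954 with a pseudocount of 0.1. With the deposited category the TSS share was 12.9% and the density ratio 1.31, and with starts of GENCODE protein-coding genes, chosen after seeing the data, the TSS share was 47.7%. The broad share was 55.6% from 10 kb and 84.4% after stitching within 10 kb. The luminal percentile was 83.8 within 50 kb of a start, 74.97 per kb, 84.9 by the strongest interval and 76.7 with the regional level divided out (chosen after seeing the data). The shared top 100 was 74 per kb and 87 to 95 under the other alternatives, against 92.

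Depth limits weak intervals, since the median interval had 13 and 12 reads and 3 reads equal 0.205 and 0.310 RPM. Intervals and floors cover counting error only. Intervals were called over the whole series, so a width may owe to treated libraries, which was not tested. Signal was assigned to the nearest start, which leaves its target untested.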

Other observations

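Chromosomes differed in signal per kb of interval. Chromosome 15, with Myc, Pvt1, Card10 and Krt8, had the highest with 4.55 and 4.57 RPM per kb in vehicle 1 and vehicle 2, followed by chromosome 19 with 4.18 and 4.22, and chromosome X had the lowest with 2.16 and 2.03. In intervals under 400 bp the same order held at both ends, with 1.79 and 2.42 on chromosome 15 and 0.796 and 1.09 on chromosome X. Of the 10 highest 2 Mb bins of such intervals, 2 lay on chromosome 9, from 12 to 14 Mb with 3.31 and 4.55 and from 34 to 36 Mb with 3.29 and 4.20. The highest of all, on chromosome 2 from 98 to 100 Mb with 30.2 and 40.3, contains the Gm10800 and Gm10801 intervals. These levels were noticed in the data and have no test, and DNA copies and acetylation cannot be told apart in them.

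In the 12634 strongest intervals the log2 ratio of vehicle 2 to vehicle 1 fell with signal per kb (Spearman correlation -0.544) and with CG dinucleotides per kb (-0.319) and rose with width (0.212) and GC content (0.136), as a description over intervals that share the same 2 libraries, the first measure being computed from the same reads. Hoxa4, Gata3, Foxc1 and Gm13833, all lower in vehicle 2, are members of this pattern, picked with their values in view. Exceptions were the densest intervals, near Gm28502 and Gm42418, with vehicle 2 to vehicle 1 ratios of 1.23 and 2.22.

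On unplaced scaffolds and chromosome Y, 129 intervals held 0.0894% and 0.0989% of the reads. Of these, the strongest lay near AC149090.1 with 336 and 273 RPM.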
